A study of Mus musculus with 4 samples.

Results

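Ion channel genes were taken from a table of genomic regions in which DNA methylation was measured in 4 populations of mouse CD4+ T cells. A region was included when its gene label began with Cacn, Kcn, Gabr, Ryr or Hcn, or with Gria, Grid, Grik, Grin, Scn, Trpc, Trpm or Trpv followed by a digit. This gave 280 of the 10000 regions (2.80%), under 108 of the 5349 gene labels of the table. The choice rests on names alone, so it also took in Trpc4ap, which encodes a protein that binds a channel, and 18 genes for auxiliary subunits.

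The 4 populations were T helper 17 (Th17), T helper 1 (Th1), regulatory (Treg) and naive T cells of Balb/c mice, all female, taken from the lymph nodes and the spleen, with 1 library of each. Th17 cells were sorted as CD3+CD4+CD45RB_low cells that secreted IL-17A and not interferon gamma, and Th1 cells as CD45RB_low cells that secreted interferon gamma and not IL-17A. Treg cells were CD3+CD4+CD25++ and naive cells CD3+CD4+CD45RB_high. PMA (10 ng/ml) together with ionomycin (500 ng/ml) was applied to all 4 during 3 h, after the sort for Treg cells and before cytokine labelling for the others. The labels give no age, number of mice or genotype beyond the strain.

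Ion channels are membrane proteins that let calcium, potassium, sodium or chloride pass when the voltage changes or a ligand binds. Most of the families here are known for electrical signalling in neurons, heart and muscle. In T cells, antigen or ionomycin raises cytosolic calcium, mainly through store-operated Orai channels gated by Stim proteins, while potassium channels hold the membrane voltage that drives calcium in. Methylated DNA was captured with a protein domain that binds methylated CG dinucleotides, so reads in a region rise both with its methylation and with the number of CG it holds. Methylation inside a gene and methylation at its start have different known relations to transcription, and no RNA was measured.

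Of the 280 regions, 5 were assigned to promoters. The 250 bases before the gene start are shown for 3 of those genes, because they range from rich to poor in the dinucleotide that the capture reads. Capitals mark every CG, which reads the same on both strands. The sequences are from RefSeq, build GRCm38.p6, 5′ to 3′ on the gene's strand: Grik4 at chr9:42944372-42944621 (minus strand), Kcnj9 at chr1:172329323-172329572 (minus strand) and Scn11a at chr9:119825457-119825706 (minus strand).
Grik4: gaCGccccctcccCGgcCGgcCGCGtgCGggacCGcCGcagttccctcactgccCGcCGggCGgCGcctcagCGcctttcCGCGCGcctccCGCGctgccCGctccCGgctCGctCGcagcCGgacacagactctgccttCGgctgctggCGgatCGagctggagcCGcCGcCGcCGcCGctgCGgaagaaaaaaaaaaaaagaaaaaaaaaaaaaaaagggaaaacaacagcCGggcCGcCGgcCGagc
Kcnj9: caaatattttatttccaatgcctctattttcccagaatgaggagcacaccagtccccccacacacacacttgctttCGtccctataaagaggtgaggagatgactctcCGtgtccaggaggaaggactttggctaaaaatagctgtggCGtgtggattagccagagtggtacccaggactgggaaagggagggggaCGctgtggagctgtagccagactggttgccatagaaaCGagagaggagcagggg
Scn11a: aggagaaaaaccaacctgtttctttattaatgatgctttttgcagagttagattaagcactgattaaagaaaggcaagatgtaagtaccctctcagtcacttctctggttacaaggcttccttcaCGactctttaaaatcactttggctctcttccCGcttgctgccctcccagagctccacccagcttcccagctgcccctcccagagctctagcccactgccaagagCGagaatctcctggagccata
Grik4 holds 36 CG in this window, Kcnj9 5 and Scn11a 3. Of all 32851 promoter windows of the same length, 2.58% hold at least as many as Grik4, 55.6% at least as many as Kcnj9 and 71.0% at least as many as Scn11a, and 92.1% hold at least 1. The regions measured were positioned in build mm9 and need not cover these bases, since the table does not say how far from the start a promoter reaches.

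Th17 cells are listed at 0 in each of the 280 regions, as in the whole table, so every value below is from Treg, Th1 and naive cells. Values are scaled reads, and 1 read was worth 0.352 units in Treg, 1.68 in Th1 and 0.996 in naive cells. The regions held 1913 Treg, 502 Th1 and 993 naive reads of table totals of 74571, 19548 and 34277. A region had a median of 7 Treg reads (range 0 to 15), 2 Th1 reads (0 to 7) and 3 naive reads (0 to 8). Reads this few leave wide errors: intervals in brackets are exact 95% intervals that cover counting error only, and with 1 library per population no difference has a replicate check. A count of 0 still allows a value of up to 1.06 in Treg, 5.04 in Th1 and 2.99 in naive cells, at 3 reads. Of 11 genes that mark T cells or the sorted populations, 2 had regions (18.2%), among them Il17a. Of 4 B cell genes 1 had a region, and of 4 myeloid genes 0. Among all protein-coding genes 22.4% had a region, and these lists are too short to set against that share. A methylated region is no measure of a marker's expression.

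More than 1 in 2 of the known ion channel genes had a region. Of 202 protein-coding genes that fit the name rule in RefSeq, 108 were in the table (53.5%, interval 46.3 to 60.5), against 4795 of the 21698 other protein-coding genes (22.1%). No test was made of this difference, and gene length was not taken into account. The families differed widely. Glutamate receptors had 17 of 19 genes in the table, voltage-gated calcium channels 22 of 26, ryanodine receptors all 3 and HCN channels 3 of 4. TRP channels had 12 of 23, potassium channels 40 of 94, GABA-A receptors 8 of 19 and sodium channels 3 of 14. All 10 genes for calcium channel pores (Cacna1) and all 4 for their alpha2-delta subunits (Cacna2d) had a region, as did all 4 AMPA (Gria) and all 5 kainate (Grik) receptor genes. Of the potassium channel groups, voltage-gated pores had 16 of 40, inward rectifiers 7 of 15 and two-pore domain channels 7 of 14.

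**Figure D1:**
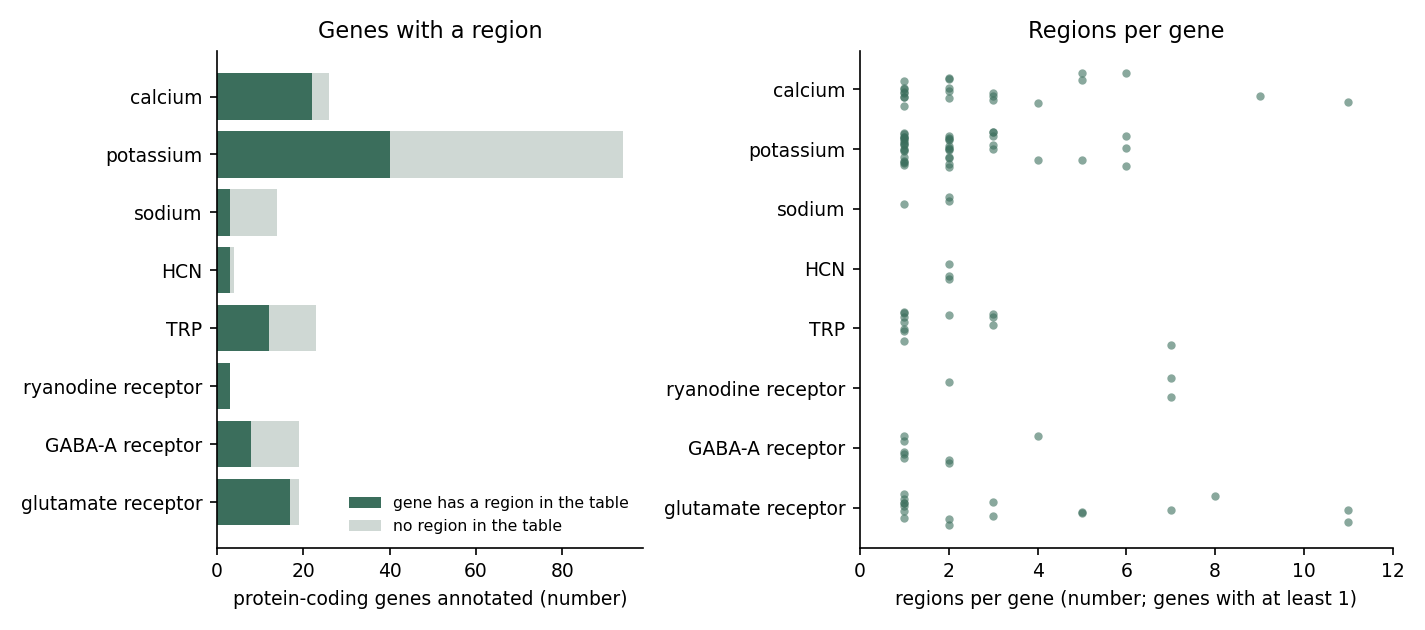
Left, protein-coding genes of each ion channel family in RefSeq (horizontal axis, number), split into those with a region in the table and those without. Right, each point is a gene with at least 1 region, placed by its number of regions; the points furthest right, at 11, include Grik4 and Cacna1c.

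Regions clustered in a few genes. Grik4, a kainate receptor gene, and Cacna1c, the pore of the L-type calcium channel of heart and brain, had 11 regions each. Cacna2d3 had 9, the NMDA receptor gene Grin2a 8, and Grid1, Ryr2, Ryr3 and Trpm3 7 each. The 18 genes with 5 or more regions held 127 of the 280, while 46 genes had 1. The mean was 2.59 regions per gene with a median of 2, against 1.85 and 1 in the rest of the table. Within a gene the regions lay far apart: those of Kcnip4 spanned 884 kb of chromosome 5 and those of Cacna1c 469 kb of chromosome 6. In 6 genes a pair of neighbouring regions lay within 1 kb, the closest being exons 43 and 44 of Ryr1, 59 bp apart.

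By location, 256 regions were intronic (91.4%, interval 87.5 to 94.4), 19 exonic (6.79%) and 5 in promoters (1.79%). Of the other regions 78.3% were intronic, 16.9% exonic and 4.86% in promoters. With the most-read region kept per gene the intronic share was 86.1%. Region length was alike, with a median of 247 bp (132 to 707) in ion channel genes and 249 bp (93 to 790) in the rest.

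As deposited, ion channel regions had the lowest mean value in Treg cells and the highest in naive cells. The place of naive cells above Treg held under both other scalings tried, while that of Th1 above Treg did not. The mean value per region was 2.41 in Treg (interval 2.30 to 2.52), 3.01 in Th1 (2.76 to 3.29) and 3.53 in naive cells (3.32 to 3.76). In the rest of the table the means were 2.63 in Treg (2.62 to 2.65), 3.29 in Th1 (3.25 to 3.34) and 3.41 in naive cells (3.37 to 3.45). The intervals of ion channel regions and the rest did not overlap in Treg, overlapped in Th1 and overlapped in naive cells. Of the 280 regions, 234 were read in all 3 libraries (83.6%, interval 78.7 to 87.7), against 86.0% of the rest. No Th1 read was found in 42 regions of 33 genes, 15.0% of the regions against 12.3% of the whole table. Treg reads were missing from 1 region (0.357%, against 0.25%) and naive reads from 3 (1.07%, against 1.61%).

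**Figure D2:**
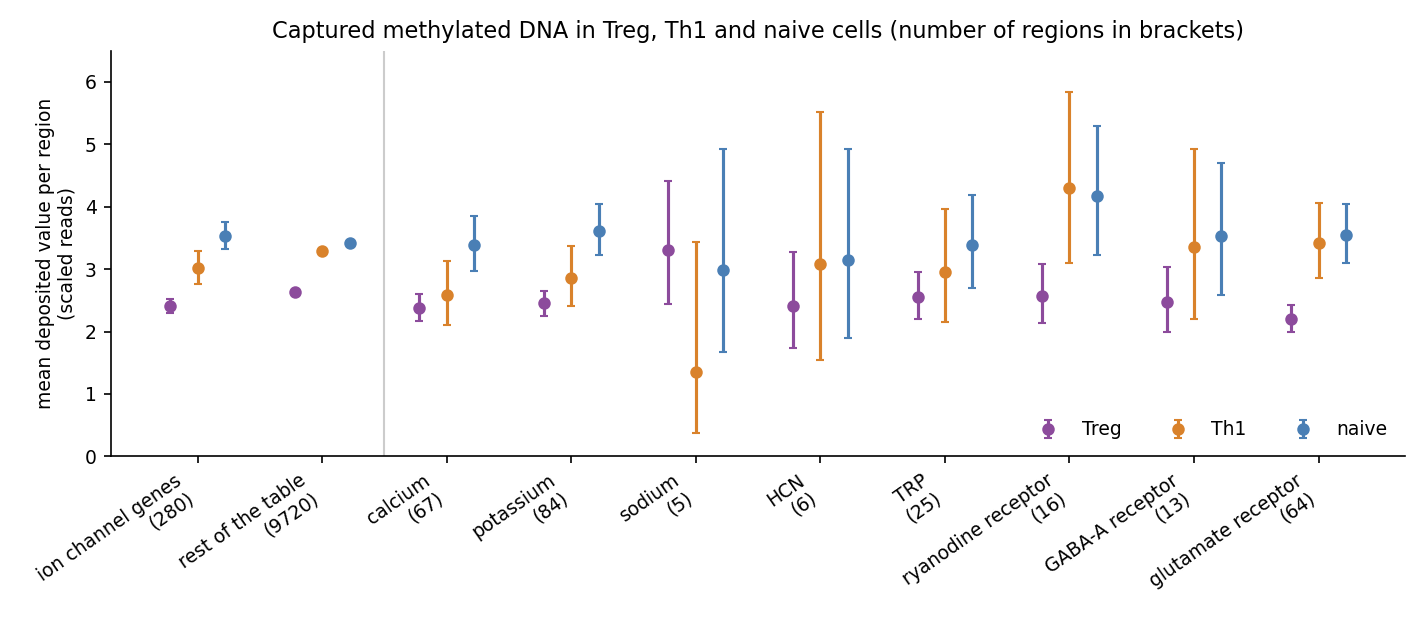
Mean deposited value per region (vertical axis, scaled reads) in Treg, Th1 and naive cells for all ion channel regions, the rest of the table and each family. Bars are exact 95% Poisson intervals, which are widest for sodium and HCN channels with 5 and 6 regions; Treg lies below naive cells in every family except sodium channels.

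Regions were counted as higher or lower between 2 libraries when the log2 ratio of their values, with 0.5 added to each, was at least 1 in size. Between Treg and naive cells, 18 ion channel regions were higher in Treg (6.43%, against 8.33% of all regions) and 83 were lower (29.6%, against 22.2%). Of these calls, 17.8% were in the higher direction as deposited, 39.8% at equal table totals (each library given the same sum over the table) and 35.8% with median-of-ratios scaling. Over all regions the same shares were 27.3%, 55.2% and 50.5%. The median log2 ratio of the ion channel regions was -0.43, against -0.29 over all regions as deposited. At equal table totals the whole table's median was 0.04 and that of ion channel regions -0.11. Relative to all regions, the ion channel median lay lower by 0.15 as deposited. Each scaling multiplies a whole library by 1 constant, so this gap could hardly change under the other scalings.

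Between Th1 and naive cells, 40 regions were higher in Th1 (14.3%, against 19.4% of all regions) and 92 were lower (32.9%, against 29%). Of the 92, 42 had no Th1 read, so a region could pass by having none. The median log2 ratio was -0.22, against -0.19 over all regions. When the unread regions were set to the limit that a count of 0 allows, both medians became 0.15. Between Treg and Th1, 47 regions were higher in Treg (16.8%, against 17% of all regions), 42 of them with no Th1 read, and 53 were lower (18.9%, against 21%). The median was -0.19 as deposited, against -0.22 over all regions, and -0.59 and -0.46 with unread regions at their limit. Higher calls made up 47.0% of these as deposited, 65.1% at equal table totals and 67.6% with median-of-ratios scaling. Over all regions these shares were 44.8%, 59.8% and 65.0%, so the prevailing direction turned with the scaling in the whole table too.

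**Figure D3:**
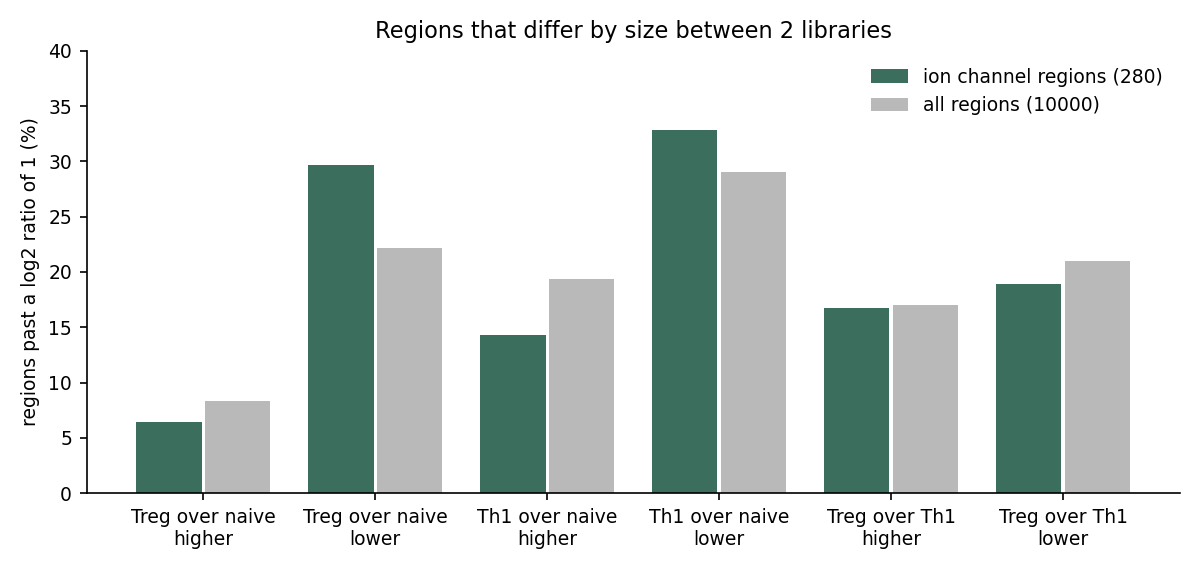
Share of regions (vertical axis, percent) past a log2 ratio of 1 in each pair of libraries and direction, for the 280 ion channel regions and all 10000 regions. The widest gap is in regions lower in Treg than in naive cells, 29.6% against 22.2%.

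A 2-sided exact binomial test of recovered reads compares single libraries rather than cell types. It called 0 of the 280 regions in any pair after Benjamini-Hochberg adjustment over the table. Over all regions it called 1 (0.01%) for Treg against naive cells and 0 for the other pairs. Before adjustment, p was under 0.05 in 36 regions lower in Treg than in naive cells (12.9%, against 8.08% of all regions) and in 0 higher (against 0.32%). For Treg against Th1 the counts were 14 lower (5.0%, against 5.01%) and 0 higher (against 0%), and for Th1 against naive cells 0 in both directions (against 0.16% lower and 1.37% higher).

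Summing the values over regions gave firmer ratios. Treg over naive was -0.55 on the log2 scale in ion channel regions (interval -0.66 to -0.44) and -0.37 in the rest of the table (-0.39 to -0.35). Th1 over naive was -0.23 (-0.39 to -0.07) in ion channel regions and -0.05 (-0.08 to -0.02) in the rest. Treg over Th1 was -0.32 in both, with intervals of -0.47 to -0.18 and -0.35 to -0.30. The first pair of intervals did not overlap and the second overlapped by less than 0.01. At equal table totals the ion channel sums were -0.18 (-0.29 to -0.06) for Treg over naive, -0.17 (-0.33 to -0.02) for Th1 over naive and 0.00 (-0.14 to 0.14) for Treg over Th1, which stood at 0.07 (-0.07 to 0.21) with median-of-ratios scaling. No test between ion channel regions and the rest was made.

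By family, Treg over naive was below 0 in 7 of 8 as deposited and under both other scalings, and above 0 in sodium channels. The interval lay below 0 in 5 families as deposited (calcium, potassium, glutamate, ryanodine and TRP) and in 1, glutamate receptors, at equal table totals (-0.31, -0.55 to -0.07) and with median-of-ratios scaling (-0.33, -0.57 to -0.09). Treg over Th1 was below 0 in calcium, potassium and TRP channels as deposited and above 0 at equal table totals, at 0.20 (-0.11 to 0.53) in calcium, 0.10 (-0.17 to 0.37) in potassium and 0.11 (-0.37 to 0.62) in TRP channels.

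The lower sum in ion channel genes than in the rest was also seen within introns and within genes that held many regions. Among intronic regions alone, Treg over naive was -0.61 (-0.73 to -0.50) in ion channel genes and -0.41 (-0.43 to -0.39) in the rest. Among genes with 5 or more regions it was -0.71 (-0.88 to -0.54) in 18 ion channel genes and -0.45 (-0.48 to -0.41) in 323 others. With the most-read region kept per gene it was -0.30 (-0.48 to -0.13) in ion channel genes and -0.23 (-0.25 to -0.20) in the rest. With at least 10 reads per region it was -0.36 (-0.49 to -0.24) and -0.26 (-0.28 to -0.24). In both of these subsets the intervals of ion channel genes and the rest overlapped. The part of gene length in these values was not tested.

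**Figure D4:**
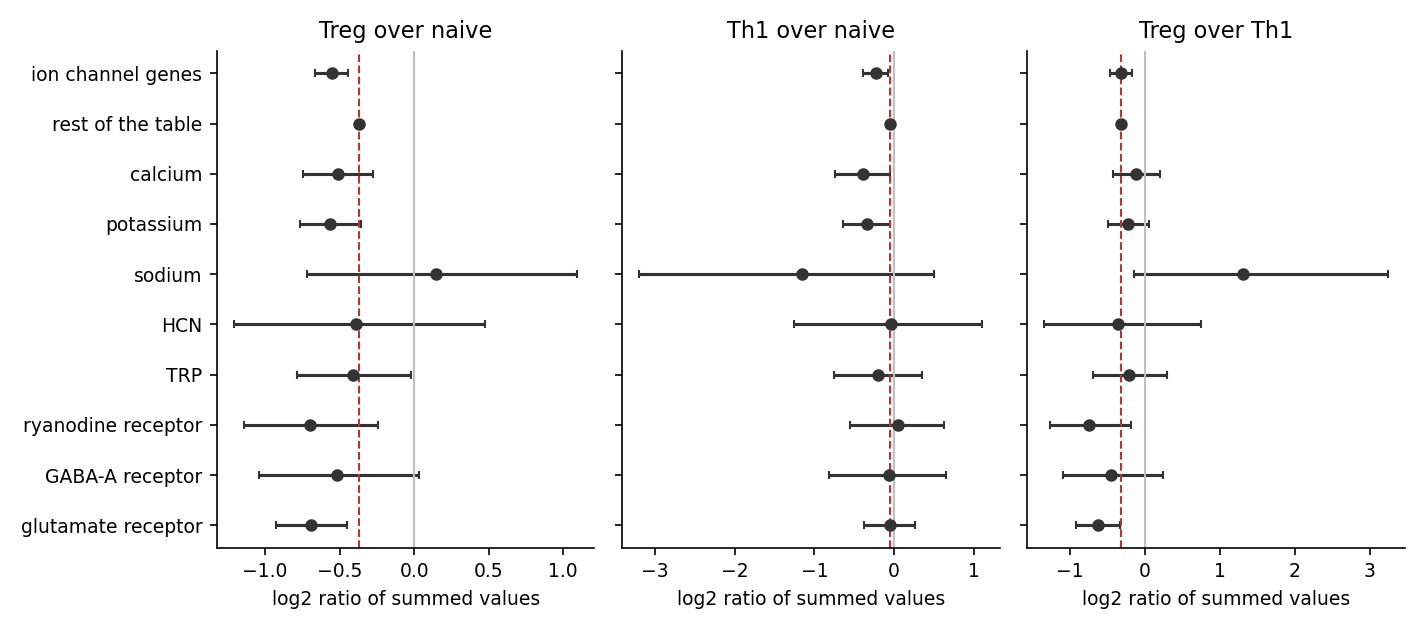
Log2 ratio of summed values (horizontal axis) for Treg over naive, Th1 over naive and Treg over Th1, for all ion channel regions, the rest of the table and each family, with exact 95% intervals for counting error. The dashed line marks the rest of the table; the glutamate receptor interval for Treg over naive lies wholly left of it.

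Voltage-gated calcium channels admit calcium on depolarisation, and their 67 regions in 22 genes had means of 2.38 in Treg (2.16 to 2.61), 2.58 in Th1 (2.11 to 3.13) and 3.39 in naive cells (2.96 to 3.86). Th1 over naive was -0.39 on the log2 scale (-0.74 to -0.05), or -0.34 (-0.69 to 0.01) at equal table totals, and 14 of the 67 regions had no Th1 read. The alpha2-delta genes, whose products carry the pore to the membrane, stood at -0.88 (-1.68 to -0.13) over 18 regions with 20 Th1 and 62 naive reads. The 32 regions of the pore genes stood at -0.44 (-0.95 to 0.06). The beta subunit genes (Cacnb) lay the other way, at 0.95 (-0.18 to 2.09) over 7 regions with 16 Th1 and 14 naive reads, an interval that includes 0. The gamma subunit genes (Cacng2, Cacng3, Cacng4, Cacng7 and Cacng8), whose products are partners of AMPA receptors, stood at -0.40 (-1.29 to 0.44).

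Cacna1c was the calcium channel gene with the most regions, all intronic, on chromosome 6 between 118558960 and 119027693. Its 7 regions at the lower coordinates held 40 Treg, 16 Th1 and 23 naive reads, among them the intron at 118723117 to 118723432 with 5 Treg, 6 Th1 and 4 naive reads. Its 4 regions at the higher coordinates, from 118791567 to 119027693, held 27 Treg, 0 Th1 and 13 naive reads. Th1 reads were thus found only in the lower stretch, while Treg values averaged 2.38 in the 4 regions and 2.01 in the 7, and naive values 3.24 and 3.27. No Th1 read in 4 regions allows a mean of up to 1.26 in them, against 3.84 in the other 7. This stretch was singled out after its values were seen, so it has no test. Runs of neighbouring regions with no Th1 read were otherwise no longer than 2, in Kcnb2, Kcnd2, Kcnip4 and Trpm3.

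Other calcium channel genes showed how reads scattered over single regions. An intron of Cacnb4 (chromosome 2, 52452535 to 52452882) held 15 Treg, 3 Th1 and 1 naive read, values of 5.29, 5.04 and 0.996. An intron of Cacna2d2 (chromosome 9, 107404527 to 107404735) held 10 Treg, 1 Th1 and 0 naive reads, and ranked first in Treg over naive with the 0.5 added. The Cacnb4 intron was high in Treg relative to naive cells by the size rule. The place of the Cacna2d2 intron rests on a naive count of 0, which allows up to 2.99, against 3.52 in Treg. At the other end, introns of Cacna2d4 (5 Treg, 0 Th1 and 6 naive reads) and Cacna2d3 (3, 0 and 6) tied for the lowest ratio of Th1 over naive. So did 2 of Kcnip4, and other regions with 0 Th1 and 6 naive reads, among them 1 of Grik4, had the same ratio. Cacna2d3 over its 9 regions held 45 Treg, 10 Th1 and 31 naive reads.

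Ryanodine receptors release calcium from the endoplasmic reticulum, Ryr1 chiefly in skeletal muscle and Ryr2 in heart, and Ryr3 more widely. Their 16 regions had means of 2.58 in Treg (2.13 to 3.09), 4.31 in Th1 (3.09 to 5.84) and 4.17 in naive cells (3.23 to 5.30). Treg over naive was -0.69 (-1.14 to -0.24) and Treg over Th1 -0.74 (-1.27 to -0.19). These intervals hold the -0.37 and -0.32 of the rest of the table. At equal table totals the same ratios were -0.32 (-0.76 to 0.14) and -0.42 (-0.94 to 0.13), so both intervals then held 0. An intron of Ryr2 (chromosome 13, 11777157 to 11777485) held 3 Treg, 7 Th1 and 4 naive reads, values of 1.06, 11.8 and 3.98. It had the most Th1 reads of any ion channel region. The exact binomial p for Treg against Th1 there was 0.000345, but the adjusted p was 0.656. Over its 7 regions Ryr2 held 43 Treg, 20 Th1 and 28 naive reads, a log2 ratio of Treg over Th1 of -1.15 (-1.95 to -0.31). Ryr3 held 57 Treg, 17 Th1 and 31 naive reads over 7 regions, with Treg below naive in all 7, and the 2 exon regions of Ryr1 held 17 Treg, 4 Th1 and 8 naive reads.

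Potassium channels, which set and restore the membrane voltage, had the most regions, 84 in 40 genes. Their means were 2.45 in Treg (2.26 to 2.66), 2.86 in Th1 (2.41 to 3.37) and 3.62 in naive cells (3.22 to 4.05). By the size rule 4 regions were higher (4.76%, against 8.33% of all regions) and 25 lower (29.8%, against 22.2%) in Treg than in naive cells. Voltage-gated pore genes had 0 higher and 11 lower of 33 (33.3%), with a summed ratio of -0.62 (-0.95 to -0.28). Two-pore domain genes (Kcnk), whose products carry background currents, had 0 higher and 1 lower of 10 (10.0%), at -0.34 (-0.91 to 0.25). Inward rectifier genes (Kcnj) stood at -0.48 (-1.10 to 0.17), and the pores opened by calcium or sodium (Kcnma1, Kcnn2, Kcnn3 and Kcnt1) at -0.72 (-1.26 to -0.16). All these intervals hold the value of the rest of the table.

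Kcnip1 and Kcnip4 encode calcium-binding partners of Kv4 potassium channels, and their regions differed widely within each gene. In Kcnip1, the intron at 33540649 to 33540820 of chromosome 11 held 1 Treg, 1 Th1 and 7 naive reads. The intron at 33603009 to 33603270 of the same gene held 9 Treg, 3 Th1 and 0 naive reads. The first was low in Treg relative to naive cells, and the second rests on a naive count of 0, which allows up to 2.99, against 3.17 in Treg. For the first, the exact binomial p of Treg against naive was 0.000514, the lowest of the ion channel regions, and the adjusted p was 0.223. In Kcnip4, the intron at 49818617 to 49818867 of chromosome 5 held 0 Treg, 3 Th1 and 4 naive reads, the only ion channel region with no Treg read. An intron at 49142505 to 49142735 of Kcnip4 held 7 Treg, 0 Th1 and 6 naive reads. The highest mean value of the family was in another intron of Kcnip1 (33811334 to 33811595), with 9, 5 and 5 reads. Over 6 regions each, Treg over naive was -0.25 (-1.06 to 0.60) in Kcnip1 and -0.99 (-1.75 to -0.21) in Kcnip4.

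Other potassium channel regions at the ends of the rankings held as few reads. An intron of Kcnh8, a voltage-gated pore gene, held 2 Treg, 1 Th1 and 6 naive reads. Introns of Kcnj5 (10 Treg, 0 Th1 and 3 naive reads) and Kcnab1 (9, 0 and 3) were among the 4 highest in Treg over Th1. Both rest on a missing Th1 read, and other regions with 9 Treg and 0 Th1 reads had the same ratio as the Kcnab1 intron. Kcnq1, a cardiac potassium channel gene that lies in an imprinted domain, had 6 intronic regions with 39 Treg, 14 Th1 and 22 naive reads. Its antisense RNA Kcnq1ot1 starts within the gene, and the reads carry no strand.

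TRP channels are cation channels that respond to temperature, chemical ligands or signals from other receptors. Their 25 regions had means of 2.55 in Treg (2.19 to 2.95), 2.96 in Th1 (2.15 to 3.97) and 3.39 in naive cells (2.71 to 4.19). Trpm3 held the most regions, 7, and its exon 6 (chromosome 19, 22807467 to 22807726) held 11 Treg, 0 Th1 and 2 naive reads. Trpm1 and Trpc5 had 3 regions each, and exon 11 of Trpc5 on the X chromosome held 9, 4 and 1 reads, values of 3.17 in Treg, 6.72 in Th1 and 0.996 in naive cells. Trpm4, a calcium-activated cation channel described in T cells, had 1 region in exon 8 (chromosome 7, 52574521 to 52574706) with 13 Treg, 3 Th1 and 1 naive read. Exon 2 of Trpc2, a channel of pheromone-sensing neurons in mice, held 12 Treg, 1 Th1 and 1 naive read. It was 1 of 2 ion channel regions higher in Treg than in both other libraries by the size rule (0.714%, against 1.42% of all regions). The other was an intron of the sodium channel gene Scn2a1, with 14, 1 and 2 reads. Naive cells were higher than both others in 45 regions (16.1%, against 11.2%) and Th1 cells in 16 (5.71%, against 9.1%).

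Voltage-gated sodium channels, which start the action potential, had 5 regions in Scn1a, Scn2a1 and Scn11a. They held 47 Treg, 4 Th1 and 15 naive reads, means of 3.31 in Treg (2.43 to 4.41), 1.34 in Th1 (0.366 to 3.44) and 2.99 in naive cells (1.67 to 4.93). Sodium channels were the one family with Treg above naive cells, at 0.15 (-0.72 to 1.09), and the interval holds 0. HCN channels, which carry the pacemaker current, had 6 regions in 3 genes, among them Hcn3 and Hcn4, with 41 Treg, 11 Th1 and 19 naive reads. The exon 8 region of Hcn3 held 7, 0 and 4 of these, and an intron of Hcn4 with the highest mean of the family 5, 4 and 6. The sodium channel sum of Treg over Th1 was 1.30 (-0.15 to 3.24) as deposited and 1.62 (0.17 to 3.56) at equal table totals, on 4 Th1 reads. All intervals of the HCN sums hold 0.

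GABA-A receptors are chloride channels opened by the transmitter GABA. Their 13 regions in 8 genes were all read in Th1, and had means of 2.47 in Treg (1.99 to 3.03), 3.36 in Th1 (2.20 to 4.93) and 3.52 in naive cells (2.58 to 4.70). Introns of Gabra5 (7 Treg, 3 Th1 and 0 naive reads) and Gabrb1 (8, 4 and 1) were among the 4 highest in Th1 over naive. Exon 11 of Gabrb2 held 1 Treg, 3 Th1 and 3 naive reads and was among the 4 lowest in Treg over Th1.

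Glutamate receptors of the AMPA, kainate and NMDA kinds carry most fast excitation in the brain. Their 64 regions in 17 genes had the lowest Treg mean of the 8 families, 2.20 (1.99 to 2.43), with 3.41 in Th1 (2.85 to 4.05) and 3.55 in naive cells (3.10 to 4.04). Treg over naive was -0.69 (-0.93 to -0.45), and the interval lay below the -0.37 of the rest of the table. By the size rule 2 regions were higher (3.12%, against 8.33% of all regions) and 23 lower (35.9%, against 22.2%) in Treg than in naive cells. Treg over Th1 was -0.63 (-0.92 to -0.34) and Th1 over naive -0.06 (-0.38 to 0.26). At equal table totals Treg over Th1 was -0.31 (-0.60 to -0.01). With median-of-ratios scaling it was -0.24 (-0.53 to 0.06), an interval that holds 0. Among the kinds given here, Treg over naive was -0.83 (-1.31 to -0.33) in NMDA receptor genes. It was -0.60 (-1.26 to 0.09) in AMPA and -0.53 (-0.96 to -0.09) in kainate receptor genes. These intervals overlap one another and hold the -0.37 of the rest of the table. At equal table totals the ratio was -0.45 (-0.93 to 0.05) in NMDA receptor genes. In AMPA it was then -0.22 (-0.89 to 0.47) and in kainate receptor genes -0.15 (-0.59 to 0.29), and all these intervals hold 0.

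The single glutamate receptor regions named below, picked for their rank or location, differed in which library had the highest value. The highest mean value of all ion channel regions was in an intron of the kainate receptor gene Grik5 (chromosome 7, 25848401 to 25848664), with 11 Treg, 6 Th1 and 4 naive reads, values of 3.88, 10.1 and 3.98. The Th1 value was the largest there, and those of Treg and naive cells were alike. Ranking by mean value favours regions with Th1 reads, since 1 read was worth 1.68 units in Th1 and 0.352 in Treg. An intron of the AMPA receptor gene Gria2 (chromosome 3, 80559590 to 80559903) held 4 Treg, 6 Th1 and 5 naive reads, with Treg low. Grik4 had 11 regions with 74 Treg, 21 Th1 and 41 naive reads. Its promoter region (chromosome 9, 42754124 to 42754449), of the gene whose CG-rich start is printed above, held 9 Treg, 1 Th1 and 2 naive reads. Its intron at 42569865 to 42570022 held 2, 1 and 6.

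Across the 18 genes with 5 or more regions, the summed ratio of Treg over naive was below 0 in all 18, from -1.32 in Grin2a to -0.25 in Kcnip1, and below 0 in 16 at equal table totals, all but Cacna1b and Kcnip1. Its interval lay below 0 in 6, among them Cacna2d3, Grik4, Grin2a, Kcnip4 and Ryr2. It lay below the -0.37 of the rest of the table in 2, among them Grin2a. The same 2 stayed below 0 at equal table totals. That is nearly the same criterion, since this scaling brings the rest of the table to 0.005. Grin2a held 35 Treg, 11 Th1 and 31 naive reads over 8 regions, with Treg below naive in 7 of them. For Th1 over naive 14 of the 18 lay below 0 and no interval left 0 out. For Treg over Th1 15 lay below 0, with the interval below 0 in Grik1 and Ryr2, and 11 lay below 0 at equal table totals, with no interval wholly below. The 323 other genes with 5 or more regions also summed below 0 as deposited. Their sums were -0.45 for Treg over naive, -0.13 for Th1 over naive and -0.31 for Treg over Th1. How many of them lay below 0 singly was not counted. The intervals are not adjusted for the 18 genes.

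**Figure D5:**
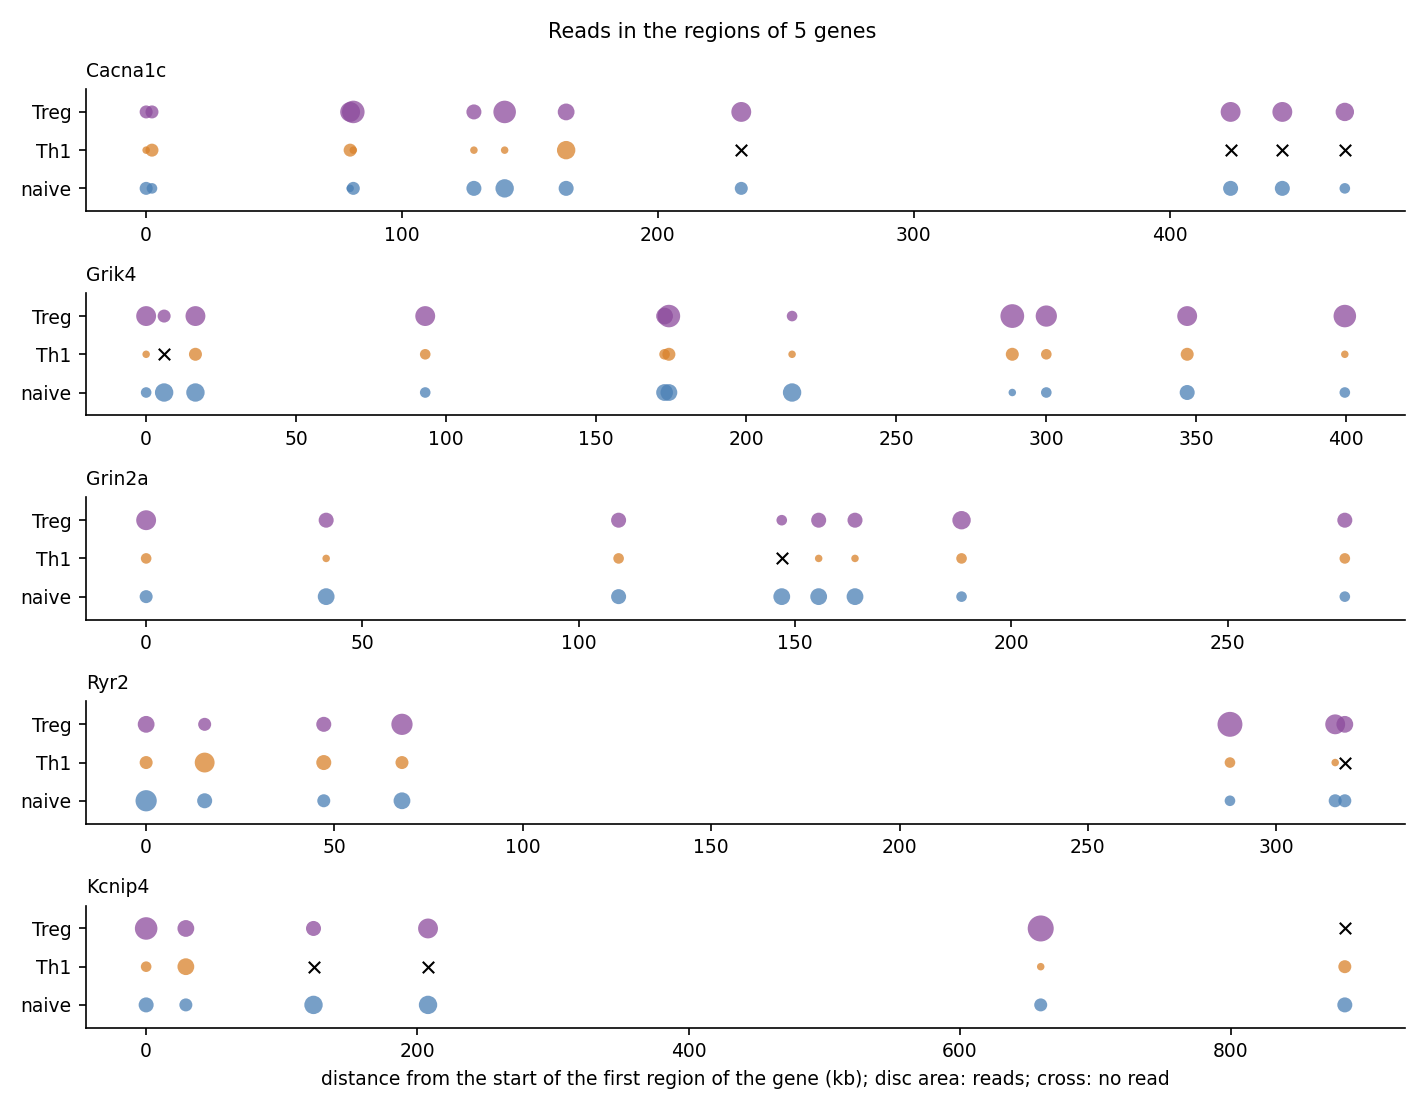
Reads in each region of Cacna1c, Grik4, Grin2a, Ryr2 and Kcnip4 in Treg, Th1 and naive cells, against the distance from the gene's first region (horizontal axis, kb). Disc area is proportional to reads and a cross marks 0 reads, as in the 4 Cacna1c regions furthest right in the Th1 row.

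Outside introns, values were small in number and lay differently. The 19 exon regions had means of 2.89 in Treg (2.46 to 3.39), 2.57 in Th1 (1.72 to 3.68) and 2.83 in naive cells (2.13 to 3.69), so Treg over naive was 0.03 (-0.42 to 0.51), against -0.19 (-0.24 to -0.14) in exon regions of the rest. Intronic regions of ion channel genes stood at -0.61, with an interval that did not overlap that of the exons. The rest of the table had the same order, with introns at -0.41 (-0.43 to -0.39), an interval that did not overlap that of its exons. Exon reads ranged in Treg from 1 in Gabrb2 to 13 in Trpm4, in Th1 from 0 to 4 and in naive cells from 1 to 5, and the 18 genes with an exon region included Cacna1b, Cacna1f, Cacna1g, Cacna2d1, Gria3, Kcna2, Kcnh1, Kcnq5 and Ryr3 (exon 60). Among the regions assigned to exons, those in first exons were in Cacna1s, the pore of the skeletal muscle calcium channel (7 Treg, 0 Th1 and 2 naive reads), and in Trpc4ap (8, 0 and 4). The promoter regions held 13 Treg, 2 Th1 and 1 naive read in Kcnj9, an inward rectifier gene, 10, 1 and 4 in Scn11a, 10, 2 and 2 in the two-pore domain gene Kcnk7, and 5, 2 and 5 in Gabrq, whose region reached exon 1. By the size rule Kcnj9 was higher in Treg than in naive cells, and Gabrq was lower. The lowest unadjusted exact binomial p for this pair among the 5 promoter regions was 0.134.

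Of 17 ion channel genes that have been described in T cells, 9 had a region (52.9%, against 53.5% of all ion channel genes). These were Cacna1c, Cacna1d, Cacna1s, Cacnb4, Ryr1, Ryr2, Ryr3, Trpm4 and Trpc1. Kcna3 and Kcnn4, the potassium channels best known in T cells, had none, and neither did 6 others, among them Cacnb3, Trpm2, Trpm7, Trpv1 and Trpv2. The 39 regions of the 9 genes had means of 2.47 in Treg (2.18 to 2.78), 3.58 in Th1 (2.85 to 4.43) and 3.42 in naive cells (2.87 to 4.05). An intron of Trpc1 held 3 reads in each library, values of 1.06 in Treg, 5.04 in Th1 and 2.99 in naive cells. How the table's regions were chosen is not given, so a gene without a region cannot be read as alike in the populations.

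Among 86 further genes for other channels and for calcium entry, which are not members, 30 had a region (34.9%, against 22.4% of all protein-coding genes). Stim1, the calcium sensor that opens Orai channels, had 1 exon region with 6 Treg, 2 Th1 and 3 naive reads, while Orai1, Orai2 and Orai3 had none. The inositol trisphosphate receptor genes Itpr1 and Itpr2, for calcium release channels, had 4 and 7 regions. P2rx7, an ATP-gated channel gene, had 2, with 23 Treg, 6 Th1 and 6 naive reads. Over the 59 regions the means were 2.56 in Treg (2.32 to 2.81), 3.56 in Th1 (2.96 to 4.24) and 3.29 in naive cells (2.85 to 3.79). By the size rule 6 were higher (10.2%, against 8.33% of all regions) and 12 lower (20.3%, against 22.2%) in Treg than in naive cells. In Th1 against naive cells 14 were higher (23.7%, against 19.4%) and 15 lower (25.4%, against 29%). Of 10 genes for metabotropic glutamate and GABA-B receptors, which are not channels, 4 had a region (40%, against the same 22.4%).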

How the data were processed

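Methylated DNA was captured with a MethylCap kit from 1 library per population and 250 to 350 bp fragments were sequenced, per the labels' protocols. Bowtie 0.12.7 and FastQC, with build mm9, come from the submitters' processing notes. How regions were called, chosen and scaled is not stated. Each region has a deposited signal per library, which the authors scaled. Treg, Th1 and naive signals were whole multiples of 1 constant per library (relative tolerance 1e-06), so reads were recovered by division. All Th17 signals are 0. The members and lists were chosen with earlier results of these data known. Intervals were exact Poisson for means and exact binomial (Clopper-Pearson) for shares and ratios, at 95%. The exact binomial test, adjusted over all 10000 regions, was tested on simulated data whose changed regions held many more reads than the real ones. What it can call at the real read counts was not tested. Named genes were those with most regions, highest mean value, exon or promoter regions, or the 4 largest ratios per pair and direction, and genes described in T cells. Equal ratios were ranked by total reads, and some regions tied in these too. All 108 labels matched GRCm38.p6 RefSeq names, 1 through a synonym. Python 3.11.15, scipy 1.17.1, pandas 2.3.3 and matplotlib 3.10.9 were used. Alternatives varied scaling, pseudocount, limit, filter, members and location. Values of some genes are not reported here.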

Additional observations from a re-analysis of the deposited data

How the results depend on the processing

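The direction of the summed ratios of Treg and Th1 over naive held in every alternative tried, but the interval of Th1 over naive did not always leave out 0. Th1 over naive was -0.15 (-0.40 to 0.10) with 1 region per gene and -0.12 (-0.29 to 0.05) with at least 10 reads. The median of its region ratios was 0.15 with unread regions at their limit. For Treg over naive (-0.55) the values that moved out of its interval were -0.18 at equal table totals, -0.19 with median-of-ratios scaling, -0.30 with 1 region per gene, -0.36 with at least 10 reads and -0.43 as the median of regions. Keeping the most-read region per gene, or those with at least 10 reads, selects on totals that are mostly Treg reads, so both raise Treg over naive by construction, in the rest of the table too (-0.23 and -0.26, against -0.37 over all its regions). Treg over Th1 (-0.32) was 0.00 (-0.001516) at equal table totals, -0.15 with 1 region per gene, and reversed to 0.068 with median-of-ratios scaling, which follows from the change of scale. Th1 over naive ranged within its interval, and intronic regions alone, chosen after the data were seen, moved no ratio out of its interval. The intronic share was 86.1% with 1 region per gene, and 45.7% of regions held 2 or more reads in each library.

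Counts by size followed the limit and the reads. With a pseudocount of 5, higher and lower counts were 0 and 1 for Treg over naive (18 and 83 as reported), 2 and 7 for Th1 over naive (40 and 92), and 0 and 4 for Treg over Th1 (47 and 53). At a limit of 1.5 on the log2 scale they were 8 and 50 for Treg over naive, 16 and 57 for Th1 over naive, and 25 lower for Treg over Th1. At 1.5-fold they were 33 and 126, 84 higher, and 74 and 102 in the same order of pairs. Equal table totals gave 33 and 50 for Treg over naive, and median-of-ratios scaling 29 and 52, and 33 lower for Treg over Th1. With at least 10 reads, 45 and 60 were lower in Treg and in Th1 than in naive cells, and 30 higher and 31 lower in Treg than in Th1. The adjusted exact test called 0 in all 6 cases. Without auxiliary subunits 11 were higher in Treg than in naive cells. Of 82 alternatives, 40 stayed close to the reported values. The Th1 library, with a median of 2 reads per region, limits every comparison that uses it. No paired analysis was possible because each population has 1 library.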

Other observations

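Promoter windows gave values that enter no comparison above. The 250 bases before the start held a median of 9 CG in 110 windows of 80 ion channel genes with a region, and 5 in 89 windows of 74 ion channel genes without one, against 6 over all 32851 windows. The quartiles were 5 and 18.8 with a region, 2 and 14 without one, and 2 and 16 over all windows, so the groups overlap widely. No test was made.

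Ion channel regions on the X chromosome were 7, in Cacna1f, Gabrq, Gria3 and Trpc5. They held 47 Treg, 19 Th1 and 21 naive reads, means of 2.37 in Treg (1.74 to 3.15), 4.56 in Th1 (2.75 to 7.12) and 2.99 in naive cells (1.85 to 4.57). By the size rule 4 of the 7 were higher and 1 lower in Th1 than in naive cells, against 36 higher and 91 lower of the other 273. Over all regions 19.4% were higher and 29% lower. Regions of other genes on X were not counted apart, so whether they lay the same way was not tested. The summed log2 ratio of Th1 over naive was 0.61 (-0.37 to 1.58) on X and -0.25 (-0.41 to -0.10) elsewhere, intervals that overlap. The mice were female.

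Some neighbouring ion channel regions held the same reads in every library. A pair of introns of Cacng4 held 13 Treg, 3 Th1 and 4 naive reads each, and an intron of Cacng7 and an intron of the adjacent gene Cacng8 held 5, 1 and 6 each. These were noticed after the values were seen, regions with few reads often tie, and no test was made.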
